A study of Mus musculus with 6 samples.

Results

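The peroxisome proliferator-activated receptor γ coactivator-1 (PGC-1) family and the estrogen-related receptors (ERRs) were examined in interscapular brown adipose tissue (iBAT) of *ob/ob* mice. The set was 8 of the 20630 genes named on the array. It held the 3 coactivators *Ppargc1a*, *Ppargc1b*, and *Pprc1*, the 3 receptors *Esrra*, *Esrrb*, and *Esrrg*, the corepressor *Nrip1*, and the deacetylase *Sirt1*. The genes were taken by symbol, through the RefSeq accession of each probe, and every probe of each gene is given. They were chosen with values of the same comparison of *ob/ob* with control known, so their differences are a description and carry no test. RNA came from 3 control and 3 *ob/ob* samples of iBAT, the mice all male, 16 weeks old, and on a C57BL/6 background, and each sample was hybridized with a single dye to its own Agilent whole-genome mouse array. The *ob/ob* mice carry a mutated leptin gene in every cell and are obese from early in life. The labels give the other genotype only as control and do not say whether tissue of several mice was pooled.

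PGC-1 proteins bind no DNA themselves. They dock on nuclear receptors and other transcription factors, ERRα among them, and recruit enzymes that open chromatin, and the genes switched on in this way build mitochondria and burn FA. In BAT, norepinephrine released in the cold acts through β-adrenergic receptors, cAMP, and the kinases downstream of it to induce *Ppargc1a*, and this axis is known for heat production. NRIP1 (RIP140) opposes it at oxidative genes, and SIRT1 removes acetyl groups from PGC-1α.

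RefSeq promoter sequence (assembly GRCm38.p6) was at hand for 7 of the 8 genes, with 12 start sites in all, and none was used for *Ppargc1b*. The 250 bases before each start were searched on both strands. The motifs were the extended ERR element TNAAGGTCA, the cAMP response element TGACGTCA and its short form TGACG, the ETS motif CCGGAAGT, and a part of the NRF1 motif, GCGCATGC. TGACG lies inside TGACGTCA, so every full element also counts as a short one. The promoters of *Ppargc1a* (chr5:51567726-51567975, minus strand) and *Esrra* (chr19:6921809-6922058, minus strand) are shown because controls 1 and 2 had the highest signal of both genes. Each held 1 motif, on the strand opposite to the gene, and the capitals mark it.
Ppargc1a: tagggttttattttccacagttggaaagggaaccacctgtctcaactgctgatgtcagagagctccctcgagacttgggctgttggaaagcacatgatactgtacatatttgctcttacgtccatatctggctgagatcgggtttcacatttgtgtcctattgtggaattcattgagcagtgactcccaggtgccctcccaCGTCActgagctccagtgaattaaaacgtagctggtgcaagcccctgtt
Esrra: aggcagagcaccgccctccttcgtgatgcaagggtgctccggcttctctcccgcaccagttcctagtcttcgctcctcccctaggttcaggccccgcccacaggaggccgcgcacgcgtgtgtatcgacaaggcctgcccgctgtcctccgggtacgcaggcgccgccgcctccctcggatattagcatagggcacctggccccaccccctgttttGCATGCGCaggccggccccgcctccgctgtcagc
In the *Ppargc1a* promoter, the capitals are TGACG read on the other strand, at position −49 from the start. Of 32851 mouse promoters of the same length, 17.8% held these 5 letters. In the *Esrra* promoter, they are the NRF1 part read on the other strand, at −34, which 2.26% of promoters held. The extended ERR element was in 0 of the 12 windows and in 1.14% of all promoters. TGACG also stood in 1 of the *Esrrb* windows, at −158 and −117, and in that of *Sirt1*, at −39. A match is a stretch of letters and not a measured binding site, and a window without one says nothing of sites elsewhere.

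The arrays of a group were not alike. Over all probes tested, control 1 and control 2 had a Spearman coefficient of 0.964, and the first 2 *ob/ob* arrays one of 0.967. The coefficient of control 3 was 0.642 and 0.730 with its own group, and 0.915 and 0.944 with *ob/ob* 1 and 2. That of *ob/ob* 3 was 0.858 and 0.770 with controls 1 and 2, and 0.573 and 0.488 within its own group. The groups were kept as labelled, and whether the labels of control 3 and *ob/ob* 3 fit their tissue was not tested, which bears on every group mean and difference below. Differences of single genes and the medians of the 4 gene lists around the axis are therefore also given without these arrays, in the 4 other arrays. They were left out because they stood apart, so the remaining 4 do not give an independent test of genotype. Control 1, control 3, and *ob/ob* 1 were read in 1 scan, which gives a difference within a scan, and each of the other 3 arrays had its own. The difference within the scan sets 1 *ob/ob* array against the mean of 2 controls, of which control 3 stood apart, and it has no SE. *Lep* signal was 4.57 to 5.74 in controls against 5.83 to 9.33 in *ob/ob* arrays on the log2 scale. The mutation leaves a transcript, so this does not check the labels. Between 83.5% and 89.9% of spots per array lay well above background, and the number of arrays limits the precision.

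The 8 genes were read by 10 probes, 1 for each of 6 genes and a pair for *Ppargc1a* and for *Esrrg*. Of these, 9 were detected on at least 3 of the 6 arrays and entered the fit across all probes, and 8 lay well above background on all 6. With limma and Benjamini-Hochberg adjustment over 35448 probes, 0 probes of any gene (0%) passed an adjusted p of 0.05 in either direction, and the lowest adjusted p was 0.154. At an unadjusted p under 0.05, limma found 1245 probes, or 3.51%, but 451 with scaling to the 75th percentile, 148 with the scan as a block, and from 285 without control 2 to 3484 without *ob/ob* 3. The methods' t-test also left 0 after adjustment, with 1512 at the unadjusted threshold. The labels do not say that the samples of a group came from separate mice, so p values measure only the spread between these samples.

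**Figure D1:**
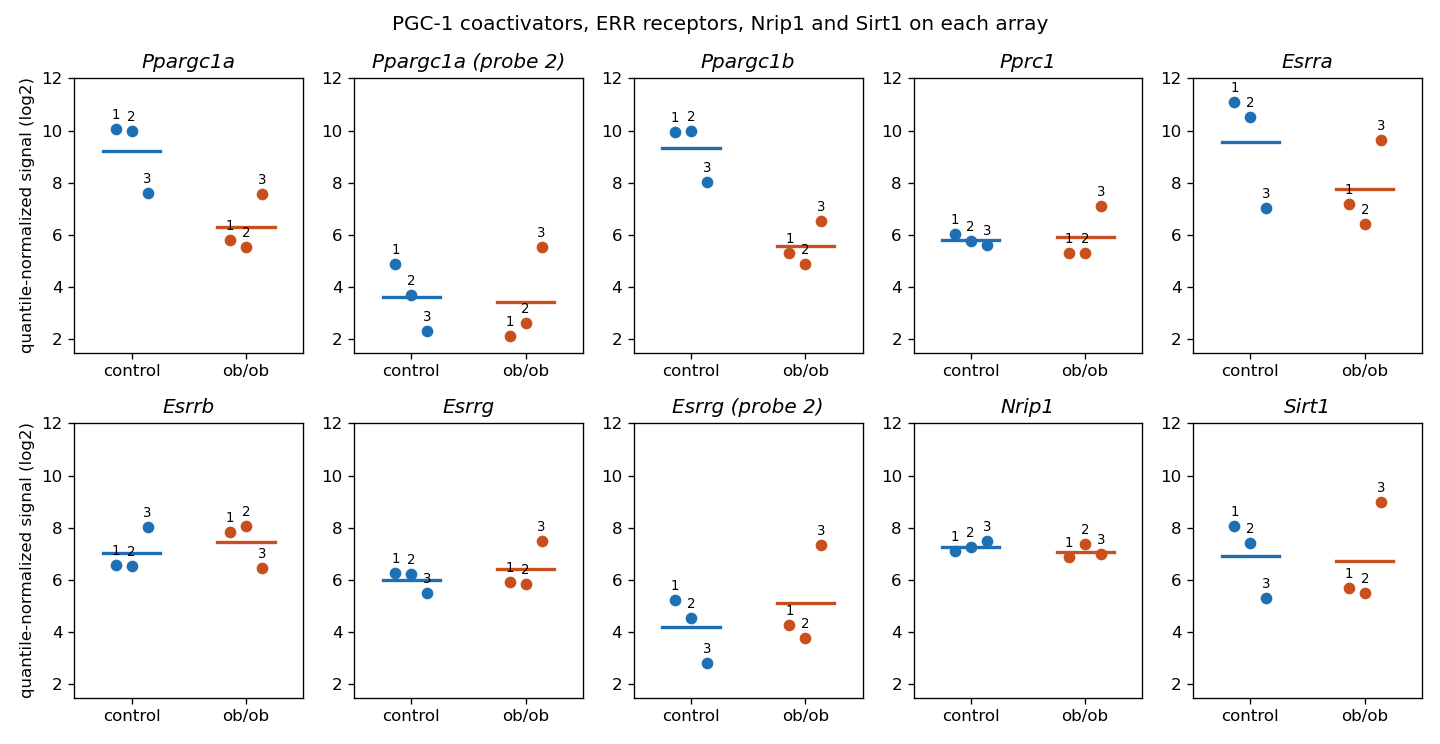
Signal of each probe of the 8 genes on each array, as log2 of the quantile-normalized intensity (vertical axis), for control (blue) and *ob/ob* (orange) iBAT. Points are single arrays with their replicate number and horizontal lines are group means. *Ppargc1b* is the only gene of the 8 with a gap over 1 log2 unit between the groups. In 8 of the 10 panels control 3 is the lowest control and *ob/ob* 3 the highest *ob/ob* array. The share of all probes with this order was not counted.

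The clearest separation was in 1 of the 3 coactivators, *Ppargc1b*. As for all values of a bulk sample, fewer cells of a type and less RNA per cell cannot be told apart. *Ppargc1b*, which encodes PGC-1β, an inducer of mitochondrial and lipid genes, had log2 signals of 9.95, 9.98, and 8.04 in the 3 controls, in the order of their numbers, against 5.31, 4.87, and 6.53 in the *ob/ob* arrays. Every *ob/ob* array was below every control, with a gap of 1.51 between the lowest control and the highest *ob/ob* array. The means were 9.32 ± 1.11 (SD, n = 3) in controls against 5.57 ± 0.86 (SD, n = 3) in *ob/ob* mice, a difference of −3.75 (SE 0.70), or 13.4-fold. It was −3.68 within the shared scan and −4.87 without control 3 and *ob/ob* 3. Leaving out any single array kept it between −4.39 and −3.40. Background correction with normexp, which compresses low signals, gave −2.66.

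*Ppargc1a*, which encodes PGC-1α, the cold-inducible member of the family, read 10.06, 9.99, and 7.59 in controls against 5.81, 5.53, and 7.58 in the *ob/ob* arrays. Controls 1 and 2 stood far above all others, while control 3 and *ob/ob* 3 met in the middle. The group means were 9.22 ± 1.40 and 6.31 ± 1.11 (SD, n = 3 each), and the difference was −2.91 (SE 0.87), or 7.503-fold. The groups did not overlap, but by only 0.016 log2 units, and with scaling to the 75th percentile they overlapped by 0.14. The difference was −3.01 within the shared scan, −4.35 without both arrays that stood apart, and between −3.72 and −2.48 when 1 array was left out. The other probe of the gene disagreed in part. It was well above background on only 2 of 6 arrays, control 1 and *ob/ob* 3, and was not tested. Its signals were 4.88, 3.69, and 2.31 in controls against 2.14, 2.64, and 5.53 in *ob/ob* mice, and its mean difference was −0.19, or −1.89 without control 3 and *ob/ob* 3.

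*Ppargc1a* and *Ppargc1b* were the 2 probes of the 9 tested whose groups did not overlap, both in the direction of lower signal in *ob/ob* iBAT. Over all probes tested, 7.92% had groups that did not overlap, 4.19% with lower and 3.74% with higher *ob/ob* signal. Since the genes were chosen on this comparison, nothing is read from that count. *Pprc1*, the PGC-1–related coactivator, which responds to growth signals, differed from its relatives. Its log2 signals were 6.05, 5.75, and 5.63 in controls against 5.32, 5.30, and 7.13 in *ob/ob* mice. The groups overlapped, with *ob/ob* 3 above all other arrays and *ob/ob* 1 and 2 below every control. The mean difference of 0.10 (SE 0.57) turned to −0.52 within the shared scan and to −0.59 without control 3 and *ob/ob* 3.

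Of the receptors, *Esrra*, which encodes ERRα, the main PGC-1 partner at oxidative genes, had the widest range. It read 11.08, 10.52, and 7.05 in controls against 7.18, 6.42, and 9.63 in *ob/ob* mice, so control 3 lay among the *ob/ob* arrays and *ob/ob* 3 near the controls. The means of 9.55 ± 2.18 and 7.75 ± 1.68 (SD, n = 3 each) differed by −1.81 (SE 1.30), or 3.50-fold, with overlapping groups and less than the SD of the controls. *Esrra* signal in control 3 was 13.4-fold below the mean of the other controls, a gap that only 1.24% of all probes exceeded in that direction. Within the shared scan the difference was −1.88, although *ob/ob* 1 (7.18) lay above control 3 (7.05). The group difference was −1.04 without control 1, −3.05 without control 3, and −3.998 without both control 3 and *ob/ob* 3, or 16.0-fold.

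*Esrrb*, better known from stem cells and the inner ear, ran the other way. Its signals were 6.57, 6.53, and 8.01 in controls against 7.83, 8.06, and 6.48 in *ob/ob* arrays. Control 3 again sat with *ob/ob* 1 and 2, here at the higher level, and *ob/ob* 3 with controls 1 and 2. The difference was 0.42 (SE 0.62) over all arrays, 0.17 with scaling to the 75th percentile, 0.54 within the scan, and 1.40 without control 3 and *ob/ob* 3. With 1 array left out it ran from 0.12 without *ob/ob* 2 to 0.91 without *ob/ob* 3. *Esrrg*, a receptor of highly oxidative tissues such as heart and BAT, had a pair of probes. The one detected on all 6 arrays read 6.26, 6.21, and 5.51 in controls against 5.92, 5.87, and 7.48 in *ob/ob* iBAT, with *ob/ob* 3 highest and a difference of 0.43 (SE 0.54). The other, well above background on 4 of 6 arrays, read 5.22, 4.53, and 2.82 against 4.26, 3.79, and 7.35, a difference of 0.94 (SE 1.09). Both had overlapping groups, with differences of 0.036 and 0.24 within the shared scan. Both turned negative, to −0.34 and −0.85, without control 3 and *ob/ob* 3.

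The regulators of the axis differed widely in spread. *Nrip1* signal was 7.10, 7.25, and 7.496 in controls against 6.89, 7.39, and 6.999 in *ob/ob* mice. No array of *Nrip1* stood apart, and its difference was −0.19 (SE 0.32), or −0.038 without control 3 and *ob/ob* 3 and −0.41 within the scan. Its pooled SD within groups was 0.23, and 7.54% of all probes had a smaller one. *Sirt1* read 8.08, 7.42, and 5.31 in controls against 5.70, 5.50, and 8.99 in *ob/ob* mice, with a pooled SD of 1.73, larger than that of 92.0% of probes. *Sirt1* was lowest in control 3 and highest in *ob/ob* 3. Its difference was −0.21 (SE 1.16), −0.998 within the shared scan, and −2.15 without these arrays. The sign turned when any one of the other arrays was left out, with values of 0.37 without control 1, 0.036 without control 2, 0.31 without *ob/ob* 1, and 0.41 without *ob/ob* 2.

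**Figure D2:**
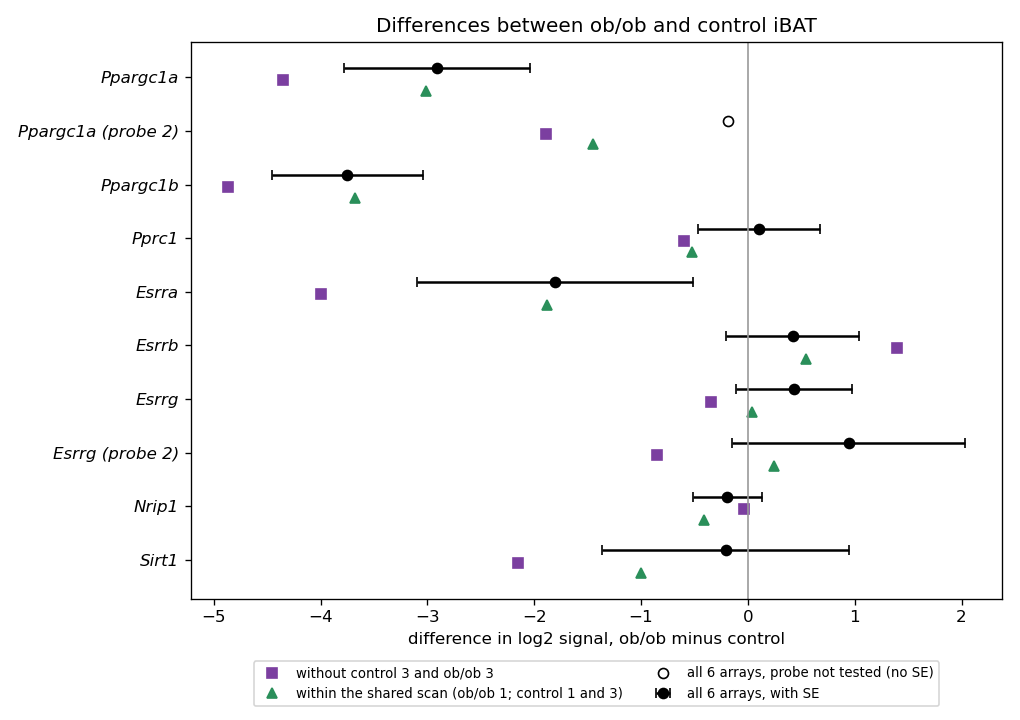
Difference in log2 signal, *ob/ob* minus control (horizontal axis), of each probe of the 8 genes. Black points with bars give all 6 arrays with the standard error of limma, the open circle a probe that was not tested, squares the value without control 3 and *ob/ob* 3, and triangles the value within the shared scan. *Ppargc1a* and *Ppargc1b* lie below −2 by all 3 measures on their tested probes, while *Pprc1* and both *Esrrg* probes have squares on the other side of 0.

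Across the 10 probes, 6 had a lower mean in *ob/ob* iBAT and 4 a higher one, beside 56.4% of all probes with a lower mean. The number with a lower mean was 4 without control 1, *ob/ob* 1, or *ob/ob* 2, and 9 without *ob/ob* 3, so the majority turned with single arrays. With *ob/ob* 1 and 2 set against controls 1 and 2, both *ob/ob* arrays were below both controls for 8 of the 10 probes and above them for *Esrrb*, which leaves *Nrip1* as the only overlap. Over all probes, 32.6% were below and 40.5% above in this way. Control 3 was below both other controls for 8 of the 10 probes, and *ob/ob* 3 was above both other *ob/ob* arrays for 8. Over all probes the median shift ran the other way, with control 3 higher than the mean of the other controls by 0.28 and *ob/ob* 3 at −0.47 against the mean of the others. The shifts were wide, with a 10th percentile of −2.23 for control 3. A median shift does not give the share of all probes with the same order, which was not counted. Nothing is therefore read from the counts of 8. The median signals of the oxidative target list, given below, had the same order, so it was not particular to these genes. The pooled SD within groups was above the median of all probes, 0.64, for 9 of the 10.

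Cell type markers also moved between the same arrays. The summed signal of 10 brown adipocyte markers, 7 of them well above background on all arrays, was 16.47, 15.76, and 12.65 in controls against 12.20, 12.06, and 13.59 in *ob/ob* mice on the log2 scale. Of these markers 8 had a lower mean in *ob/ob* iBAT, with a median difference of −1.60. *Cidea*, a lipid droplet protein of brown fat, differed by −3.01 (SE 1.26), or −5.12 in the 4 other arrays. *Zic1*, a transcription factor of the interscapular depot, differed by −2.08 (SE 0.48), or −2.11 in those arrays, and its groups did not overlap. Nor did those of *Elovl3*, at −4.51 (SE 1.06). *Dio2* and *Otop1* both differed by −0.16, but by −0.61 and 0.22 in the 4 other arrays. *Lhx8* (0.32) and *Ebf2* (1.15) had a higher *ob/ob* mean, but differed by −0.57 and −0.67 in those arrays. Not all of these markers were detected on every array: *Elovl3*, *Lhx8*, and *Ebf2* were each well above background on 3 of 6. Whether the tissue label fits each array was not tested.

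The summed signal of 12 skeletal muscle markers, 9 of them well above background on all arrays, was 15.5, 16.0, and 12.4 in controls against 10.1, 10.2, and 17.2 in *ob/ob* mice. It was lowest in *ob/ob* 1 and 2 and highest in *ob/ob* 3, and 11 of the 12 had a lower *ob/ob* mean. *Myh4*, the myosin of fast muscle fibers, spanned 6.96 to 14.96 over the 6 arrays. Skeletal muscle also uses PGC-1 and ERR genes. Erythrocyte markers, 3 of 4 tested, summed to 13.6, 11.4, and 9.30 in controls against 8.71, 8.12, and 15.0 in *ob/ob* mice. Macrophage markers, 7 of 8 tested, summed to between 9.65 and 10.7 in controls and between 10.97 and 11.20 in *ob/ob* mice, and 6 had a higher *ob/ob* mean. Different members carried these sums. *Csf1r* read 8.21, 8.01, and 9.82 in controls against 10.35, 10.34, and 8.70 in *ob/ob* mice. *Mrc1* read 5.99, 5.72, and 3.54 against 4.41, 3.67, and 9.98. In the 4 other arrays *Csf1r* differed by 2.23 and *Mrc1* by −1.81. Endothelial markers summed to 12.6 to 13.3 against 11.8 to 12.6, with 4 of 5 lower and a median difference of −0.98. Their members did not run together. *Kdr*, a receptor for VEGF, read 12.18, 11.82, and 8.28 in controls against 6.32, 5.75, and 9.87 in *ob/ob* mice, with controls 1 and 2 highest as for *Esrra*, and *Cdh5*, an endothelial cadherin, differed by −2.69, or −5.30 in the 4 other arrays. *Pecam1*, an adhesion molecule, differed by 0.048, or 1.42 in those arrays. Pan-adipocyte markers had a median difference of −0.0037, but their sum was 16.3, 16.1, and 13.5 in controls against 15.1, 14.6, and 16.4, lowest in control 3 and highest in *ob/ob* 3. Lymphocyte and white adipocyte markers had median differences of −0.43 and −0.0013. The part of any of these cell types in the coactivator and receptor values was not tested.

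**Figure D3:**
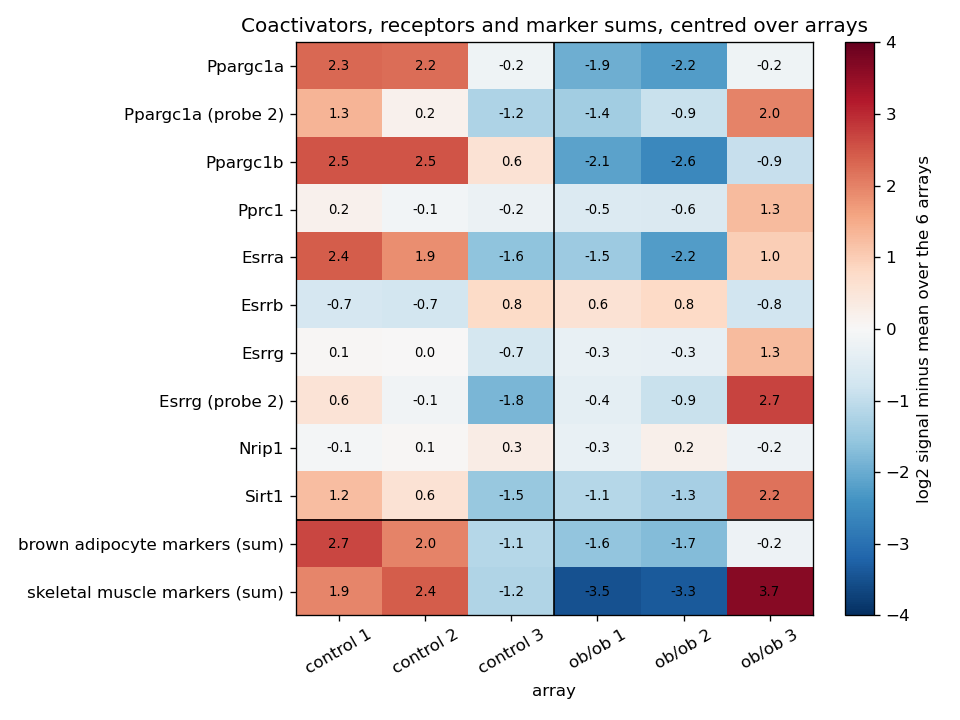
Log2 signal minus its mean over the 6 arrays for each probe of the 8 genes and for the summed brown adipocyte and skeletal muscle markers (rows), by array (columns). Red is above and blue below the mean, and the numbers give the value. Controls 1 and 2 are red and *ob/ob* 1 and 2 blue for both *Ppargc1a* probes, *Ppargc1b*, *Esrra*, *Sirt1*, and both marker sums, while *Esrrb* runs the other way.

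The profiles were also compared between genes by the root mean square (RMS) of their centered log2 signals over the 6 arrays, with the brightest probe of each gene. Among the 8 genes, *Pprc1* and *Esrrg* were closest (RMS 0.25), followed by *Ppargc1a* and *Ppargc1b* (0.48), and *Ppargc1b* and *Esrrb* were farthest apart (2.57). *Ppargc1a* and *Esrra* differed by 0.79. Of the 15965 genes detected on all arrays, the one nearest to *Ppargc1b* was *Ppargc1a*, followed by *Fmnl2*, a formin, at 0.50, and *Ccnl1*, cyclin L1, at 0.57. The median distance of all genes from *Ppargc1b* was 2.12. Nearest to *Ppargc1a* were the chemokine *Cxcl12* (0.31), *Ccnl1* (0.33), and the cell-cycle inhibitor *Cdkn1c* (0.34). Nearest to *Esrra* were the ATP-gated channel *P2rx5* (0.13), the complex I subunit *Ndufa13* (0.17), and *Hmg20b* (0.19). *Pprc1* was followed most closely by *Timm29* (0.017), *Mettl22* (0.075), and *Usp39* (0.078), and *Sirt1* by *Smad5* (0.081), *Ttpal* (0.082), and *Scamp1* (0.094). *Esrrb* was nearest to *Has3*, *Prlr*, and *Rtp2* (0.068 to 0.079), *Esrrg* to *Golm1*, *Rabggtb*, and *Anp32e* (0.074 to 0.092), and *Nrip1* to *Ankmy2*, *Gpr182*, and *Sp2* (0.038 to 0.042). With 6 arrays these distances only rank genes, and genes with a flat profile lie near many others.

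Genes around the axis were read from 4 lists, by the brightest probe of each gene, and 0 genes of any list passed an adjusted p of 0.05 (limma, lowest adjusted p 0.999992). Of all 19011 genes tested, 57.2% had a lower mean in *ob/ob* iBAT, 4.22% lay wholly below the controls and 3.78% wholly above, and the median difference was −0.086. Without control 3 and *ob/ob* 3, 46.4% had a lower mean and the median was 0.073.

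The first list held 26 genes that ERRs and PGC-1 are known to drive, most but not all of them genes of oxidative metabolism. Of these, 16 had a lower and 10 a higher mean in *ob/ob* iBAT, 2 passed an unadjusted p of 0.05, and the median difference was −0.23. This direction rested on single arrays, since the median turned to 0.43 without control 1, 0.18 without control 2, 0.15 without *ob/ob* 1, and 0.43 without *ob/ob* 2, and 10 of 26 had a lower mean without control 1 or without *ob/ob* 2. The median signal of the list was 11.4, 10.7, and 8.12 in controls against 9.58, 9.17, and 11.9 in *ob/ob* mice, so control 3 lay below every *ob/ob* array and *ob/ob* 3 above every control. With control 3 and *ob/ob* 3 left out, 24 of the 26 had a lower mean, with a median of −1.83. The 2 with groups that did not overlap were *Cpt1b* and *Vegfa*, and *Vegfa* is not a gene of oxidative metabolism. *Cpt1b*, which brings FA into mitochondria, read 9.29, 9.29, and 7.74 in controls against 7.13, 7.23, and 6.94 in *ob/ob* mice, a difference of −1.67 (SE 0.50), or −2.11 in the 4 other arrays. *Vegfa*, an angiogenic factor, read 8.02, 8.56, and 7.97 against 6.77, 6.76, and 6.05, and here control 3 sided with the other controls and *ob/ob* 3 with the other *ob/ob* arrays. Its difference was −1.66 (SE 0.37, limma unadjusted p = 0.0039), or −1.53 in the 4 other arrays. *Uqcrc1*, of complex III, had a difference of −2.02 (SE 1.11), or −3.88 in the 4 other arrays. *Idh3a*, of the citric acid cycle, had one of 1.52 (SE 0.91), but of 0.022 in the 4 other arrays. Both had overlapping groups.

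Of 17 transcription factors that work with PGC-1 or are induced by it, 9 had a lower and 8 a higher mean, 0 passed an unadjusted limma p of 0.05, and 0 had groups apart. The median difference was −0.027, and −0.70 in the 4 other arrays, where 13 had a lower mean. It was 0.19 without *ob/ob* 1 and −0.40 without *ob/ob* 3. The largest differences were in *Nr1h3*, which encodes the oxysterol receptor LXRα (−1.55, SE 0.93), the thyroid hormone receptor *Thra* (−1.41, SE 0.59), *Foxo1* (−1.03, SE 1.11), and the lipogenic factor *Srebf1* (−0.98, SE 0.49). All of these had overlapping groups, and in the 4 other arrays their differences were −3.08, −2.25, −2.93, and −1.67.

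Among 19 cofactors and corepressors, 13 had a lower and 6 a higher mean, with a median difference of −0.47, and −1.16 in the 4 other arrays. With 1 array left out the median ran from −0.71 without control 3 to −0.090 without *ob/ob* 2. *Ncor1*, a corepressor of nuclear receptors, was the 1 gene wholly above the controls. It read 6.94, 6.24, and 6.54 in controls against 7.73, 7.92, and 7.37 in *ob/ob* mice, a difference of 1.099 (SE 0.35, limma unadjusted p = 0.019), or 1.23 in the 4 other arrays. *Mybbp1a*, which binds and restrains PGC-1α, was wholly below, at 10.69, 10.95, and 10.53 against 9.37, 9.47, and 10.50, a difference of −0.94 (SE 0.42), or −1.40 in the 4 other arrays, although *ob/ob* 3 lay next to control 3. *Prdm16*, a determinant of brown fat identity, differed by −2.50 (SE 1.32) with overlap, or −4.77 in the 4 other arrays, and was well above background on 4 of 6 arrays. *Crebbp*, an acetyltransferase, differed by −0.85 (SE 0.71), and by 0.095 without control 3 and *ob/ob* 3.

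Of 16 genes that signal to *Ppargc1a*, 8 had a lower and 8 a higher mean, with a median difference of 0.075, or −0.72 in the 4 other arrays, where 12 had a lower mean. This median too turned with single arrays, to −0.18 without control 3 and −0.35 without *ob/ob* 3, and 5 had a lower mean without *ob/ob* 1. *Adrb3*, a receptor of brown adipocytes for norepinephrine, read 13.45, 12.90, and 9.34 in controls against 7.19, 7.04, and 7.98 in *ob/ob* mice. Every *ob/ob* array was below every control, with a difference of −4.49 (SE 1.09, limma unadjusted p = 0.0055), and of −6.06 without control 3 and *ob/ob* 3. *Adrb1* read 5.38, 5.02, and 7.54 in controls against 7.87, 8.25, and 6.50 in *ob/ob* mice, a difference of 1.56 (SE 0.81) with overlap, or 2.86 in the 4 other arrays. *Crtc2*, a CREB coactivator, differed by −1.76 (SE 1.13), or −3.68 in the 4 other arrays. The transcription factor *Atf2* differed by 1.38 (SE 1.29), and by −0.74 without the arrays that stood apart.

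**Figure D4:**
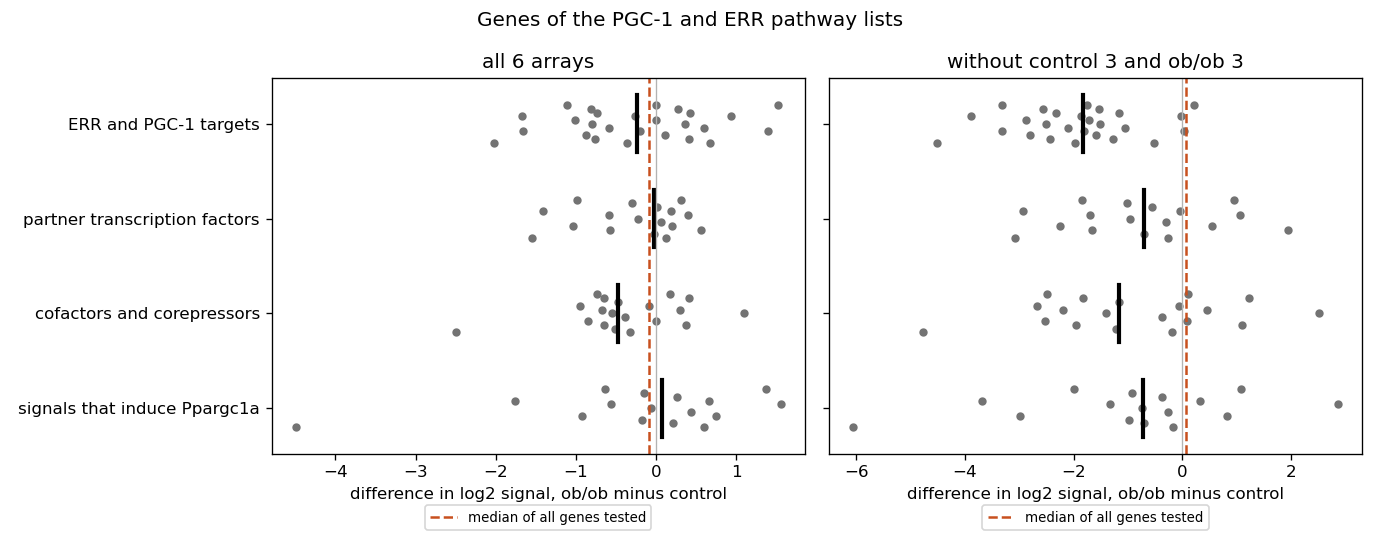
Difference in log2 signal, *ob/ob* minus control (horizontal axes), of each tested gene in 4 lists around PGC-1 and the ERRs, over all 6 arrays (left) and without control 3 and *ob/ob* 3 (right). Each point is a gene, black bars are list medians, and the dashed line is the median of all genes tested. The target list has its median at −0.23 on the left and at −1.83 on the right.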

How the data were processed

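Total RNA from 3 control and 3 *ob/ob* samples of iBAT was hybridized to 1-color Agilent arrays, 1 per sample. Per the labels, images were read with Agilent Feature Extraction (version 11.0.1.1), and the authors deposited the intensity of each spot, background-corrected within the array and not normalized between arrays. They also deposited log2 values, quantile normalized between arrays, which served as an alternative. Intensities were put on the log2 scale, spots with an outlier flag left out, spots of a probe averaged, and arrays quantile normalized. Of 39429 probes, 104 were left out because all their spots were flagged on an array. Probes with at least 50% of spots well above background on at least 3 of 6 arrays were tested with limma (version 3.58.1, R version 4.3.3), as *ob/ob* minus control, and p values were adjusted by Benjamini-Hochberg. The 4 lists and the gene distances used the brightest probe of a gene. RefSeq (GRCm38.p6) gave names to 27174 of the 28623 probes that carry one of its accessions. The array was designed on another genome build, so no probe coordinates are given.

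The 8 genes, the lists, and the marker lists were chosen with earlier results of these data known. Of each list, the text names the 4 genes with the largest difference and up to 4 more whose groups did not overlap, and for each of the 8 genes the 3 genes with the nearest profile. 1 gene that this rule covers is not reported here. Marker genes, *Lep*, and *Myh4* were named after their values were seen. Replicate numbers appear in both groups and were not used to pair the samples in the main fit. Same-numbered samples correlated at −0.78, −0.66, and −0.85 in their deviations from the group means. With 3 arrays in a group, and control 3 and *ob/ob* 3 standing apart, these values cannot decide whether samples were paired. The alternatives were scaling to the 75th percentile, normexp (offset 50), the deposited log2 values, the mean of the probes of a gene, detection on all 6 arrays or without a filter, the replicate number or the scan as a block, the methods' t-test, leaving out each array, and leaving out control 3 and *ob/ob* 3 together. The code was tested on simulated data. Figures were drawn with matplotlib (version 3.10.9).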

Additional observations from a re-analysis of the deposited data

How the results depend on the processing

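Of the 10 probes of the 8 genes, those of *Ppargc1b*, *Esrra*, *Esrrb*, and *Nrip1* and the tested probe of *Ppargc1a* kept the sign of their difference under all 14 alternatives that gave one. The detection settings and the replicate number as a block leave these differences as they are, so they could not turn a sign. The sign of *Pprc1* turned with the scan as a block (−0.52), without *ob/ob* 3 (−0.50), and without control 3 and *ob/ob* 3 (−0.59). The sign of *Esrrg* turned without *ob/ob* 3 (−0.10, and −0.17 for its other probe) and without both arrays (−0.34 and −0.85), and its difference was largest without *ob/ob* 2 (0.71 and 1.62). The sign of *Sirt1* turned without control 1 (0.37), control 2 (0.036), *ob/ob* 1 (0.31), or *ob/ob* 2 (0.41), with a lowest value of −1.34 without *ob/ob* 3, and that of the untested *Ppargc1a* probe without control 1 (0.44), *ob/ob* 1 (0.46), or *ob/ob* 2 (0.21), with a lowest value of −1.23 without *ob/ob* 3. The cause was not tested. The number of the 10 probes whose groups did not overlap was 1 with the 75th percentile, 2 to 3 with 1 array left out, and 9 without control 3 and *ob/ob* 3. In that last setting, 32.6% of all probes lay wholly below the controls and 40.5% wholly above, so nothing is read from the count of 9. Without both of these arrays, limma called 8090 probes higher and 8169 lower at an adjusted p of 0.05, which is no test of genotype because the arrays were left out for standing apart. Under every other alternative it called 0. Of all 35448 probes tested, 11563 lay wholly below and 14342 wholly above the controls without both arrays. With 1 array left out, 1685 to 4587 lay wholly below and 1414 to 5688 wholly above. With the 75th percentile, 1490 lay wholly below and 721 wholly above, and the median of all probes was −0.32 against −0.073. That median was −0.11 without *ob/ob* 2, 0.028 without *ob/ob* 3, and 0.12 without both. The median of the oxidative target list was −0.23 and ran from −1.07 to 0.43 with 1 array left out, turning to 0.43 without control 1, 0.18 without control 2, 0.15 without *ob/ob* 1, and 0.43 without *ob/ob* 2. For the transcription factors it ran from −0.40 to 0.19, with 0.16 without *ob/ob* 2, and was −0.70 without both arrays. For the signaling genes it was −0.097 with the 75th percentile, −0.064 with detection on all 6 arrays, −0.24 with the scan as a block, −0.18 without control 3, −0.35 without *ob/ob* 3, up to 0.29 with another array left out, and −0.72 without both. With the replicate number as a block, 359 probes had an unadjusted limma p under 0.05 against 1245, and 0 passed an adjusted p of 0.05 with or without it. The methods' t-test found 1512. Arrays limit weak probes: the untested *Ppargc1a* probe was above background on 2 of 6 arrays, so its difference has no firm size.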
